A study of Mus musculus with 14 samples.

Results

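Potassium channel genes were followed in GFP-positive cells sorted from the neocortex of CD1 mouse embryos after in utero electroporation, in which DNA injected into the brain ventricle is driven by electric pulses into the progenitors lining it. The members were the genes whose symbol in the array's annotation begins with Kcn followed by a family letter and a number, together with Abcc8 and Abcc9, the sulfonylurea receptors that complete ATP-sensitive potassium channels. The set held 85 of the 18193 gene symbols on the array, each read from its brightest probe set, by the mean of the 14 arrays. Of the 85 members, 3 were RNAs named after a channel gene that encode no channel (Kcnq1ot1, Kcnmb4os1 and Kcnmb4os2), and they were kept because the symbol rule takes them.

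All embryos received DNA at E14.5, and the vector was either Fezf2GFP, which carries Fezf2 and GFP, or the control CtrlGFP. Cells were sorted 24 h or 48 h later, which gave 4 groups, with 3 arrays for each vector at the earlier time and 4 for each at the later time. The electroporated cells stay in an otherwise unmodified cortex, and their own Fezf2 gene is intact in every group. The study asked what Fezf2, a transcription factor needed for corticospinal neurons of the deep layers, changes in progenitors that would mainly make upper-layer callosal neurons at this stage. Nothing in the labels says that replicate arrays are of different litters, so p-values measure only how these samples spread, which may be technical in part.

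Potassium channels let potassium leave the cell and so set the resting potential, end the action potential and limit repetitive firing. Voltage-gated Kv channels open on depolarization, calcium-activated channels couple firing to calcium, and inward rectifiers and 2-pore channels hold the resting potential. Auxiliary subunits tune the gating of some of these channels. In the embryonic cortex, radial glia, the progenitors, have a strongly negative resting potential, and voltage-gated potassium currents grow as newborn neurons mature.

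Levels are the authors' log2 values, and a level of 4 or less is called dim here. Values of different genes come from different probes, so levels are compared only within a gene. Replicate 1 of CtrlGFP at 24 h and replicate 2 of CtrlGFP at 48 h had the 2 highest array medians, and correlations within groups were 0.942 to 0.993 across genes. Of the marker lists 9 of 9 radial glia markers, 6 of 6 intermediate progenitor markers and 9 of 9 markers of postmitotic neurons rose above the dim level on some array. So did 6 of 6 interneuron, 3 of 4 oligodendrocyte lineage, 2 of 4 astrocyte, 2 of 4 Cajal-Retzius, 2 of 4 choroid plexus, 2 of 8 mural cell, 1 of 6 endothelial, 1 of 6 microglial, 0 of 5 meningeal and 0 of 3 blood markers. Fezf2 itself went against its label, with 24 h levels of 11.30 ± 0.42 for the CtrlGFP label and 9.44 ± 0.11 for the Fezf2GFP label (SD, n = 3 each, limma adjusted p = 0.0324). The later arrays read 10.15 ± 0.48 and 9.33 ± 0.70 (SD, n = 4 each), and that difference did not pass (limma adjusted p = 0.239). Whether the Fezf2 probe set reads the vector's transcript was not tested, so every direction between vectors rests on the labels.

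Most potassium channel genes were dim in these cells. Of the 85 members, 27 lay above 4 on at least 3 of the 14 arrays (31.8%, against 56.6% of all symbols), and these were tested. A further 52 stayed dim on all 14 arrays, 3 exceeded 4 on 1 array and 3 on 2 arrays. Just inside the limit were Kcnk5, a 2-pore channel gene that ranged from 3.45 to 5.44, and Kcnt2, a sodium-activated channel gene, from 3.63 to 4.47; each exceeded 4 on 6 arrays. Just outside it were the 2-pore gene Kcnk1 (lowest value 3.74), Kcnh5 (3.54 to 4.49) and Kcnj9 (2.96 to 5.18), each above 4 on 2 arrays.

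By family, 2 of 7 Kv1 genes, 2 of 3 Kv3 genes, 2 of 3 Kv4 genes, 2 of 9 electrically silent Kv genes and 2 of 3 Kv7 genes passed this filter. So did 3 of 8 calcium- or sodium-activated channel genes, 4 of 17 genes of inward rectifiers and their sulfonylurea receptors, 3 of 11 genes of 2-pore channels, 5 of 15 auxiliary subunits and 2 of the 3 non-coding RNAs. None of the 6 genes of the ether-a-go-go family did, and Kcnh1, its founding member, lay between 1.87 and 1.95 on all 14 arrays. Kcnma1, which encodes the large-conductance calcium-activated channel, exceeded 4 on 1 array, with a range of 3.49 to 4.29. Kcnj8 and Abcc9, which together form the ATP-sensitive channel of pericytes and smooth muscle, lay between 3.25 and 4.41 and between 2.43 and 3.59. Of 8 markers of those mural cells 6 were dim on all 14 arrays, while Pdgfrb lay between 6.77 and 10.03 and Rgs5 exceeded 4 on 11 arrays.

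**Figure D1:**
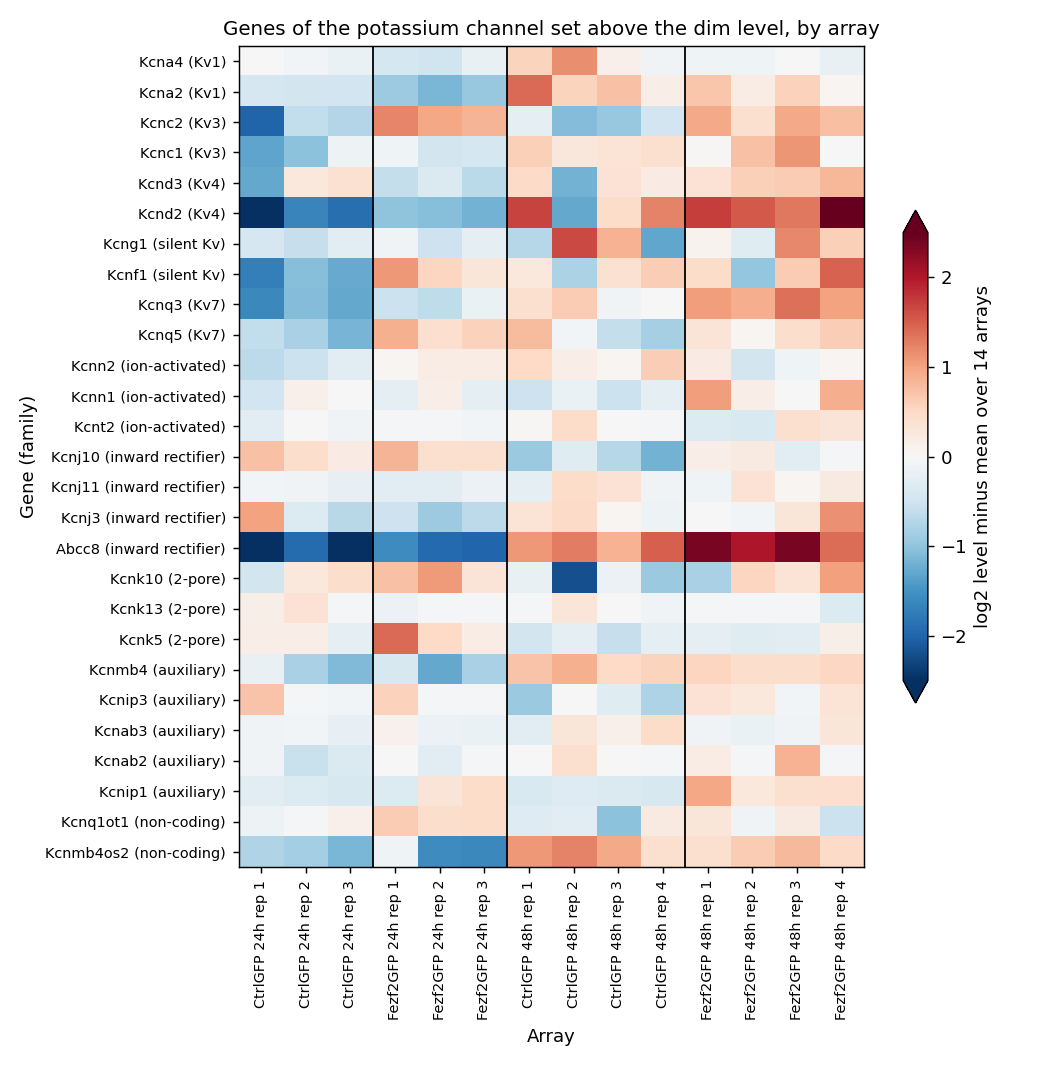
Levels of the 27 genes tested (rows, grouped by family) on the 14 arrays (columns, by group and replicate), each as the log2 level minus that gene's mean over all arrays. Abcc8 and Kcnd2 are low on all 6 arrays at 24 h, and Kcnc2 is above its mean on all 7 arrays labelled Fezf2GFP.

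A gene was said to have passed, risen or fallen when limma's adjusted p over all 10295 genes tested was below 0.05. By this rule 12 of the 27 members passed in at least 1 of 5 comparisons, against 18.6% of all genes tested, and 15 passed in none. Some members entered the test only through the group in which they were high, so these counts describe the 27 genes and not the 85.

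Promoters of 4 members whose values the results turn on are shown first. Windows from 250 bases before to 50 after a listed start were taken from RefSeq (GRCm38.p6), where 64 of the 85 members had at least 1. Capitals mark the GC box GGGCGG on either strand. The Kcnc2 window, for the member that was higher in both vector comparisons, is chr10:112270871-112271170 on the plus strand, 1 of 4 listed starts, and it held 5 CpG dinucleotides and no GC box. The windows of Kcnd2 (chr6:21215096-21215395, plus strand), Kcnmb4 (chr10:116473474-116473773, minus strand) and Kcna2 (chr3:107101317-107101616, plus strand), members that were higher at 48 h, held 26, 48 and 31 CpG dinucleotides and 1, 4 and 1 GC boxes.
Kcnc2: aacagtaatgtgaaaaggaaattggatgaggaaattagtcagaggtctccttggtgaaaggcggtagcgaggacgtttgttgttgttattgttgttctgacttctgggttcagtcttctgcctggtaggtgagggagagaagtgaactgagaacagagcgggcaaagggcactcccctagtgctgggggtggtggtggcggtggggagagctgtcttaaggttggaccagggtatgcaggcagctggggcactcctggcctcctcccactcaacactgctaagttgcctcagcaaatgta
Kcnd2: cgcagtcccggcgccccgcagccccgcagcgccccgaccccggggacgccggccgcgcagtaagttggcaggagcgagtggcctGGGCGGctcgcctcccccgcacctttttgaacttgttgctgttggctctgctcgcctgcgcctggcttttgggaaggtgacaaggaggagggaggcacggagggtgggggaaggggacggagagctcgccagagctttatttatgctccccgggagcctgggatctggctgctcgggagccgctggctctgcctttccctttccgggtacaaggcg
Kcnmb4: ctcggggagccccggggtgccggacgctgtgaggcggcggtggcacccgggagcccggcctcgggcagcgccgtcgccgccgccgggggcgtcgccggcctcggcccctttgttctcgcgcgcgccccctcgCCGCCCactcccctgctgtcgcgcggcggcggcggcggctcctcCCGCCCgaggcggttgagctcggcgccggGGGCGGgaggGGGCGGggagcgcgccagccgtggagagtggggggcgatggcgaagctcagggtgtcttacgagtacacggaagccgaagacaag
Kcna2: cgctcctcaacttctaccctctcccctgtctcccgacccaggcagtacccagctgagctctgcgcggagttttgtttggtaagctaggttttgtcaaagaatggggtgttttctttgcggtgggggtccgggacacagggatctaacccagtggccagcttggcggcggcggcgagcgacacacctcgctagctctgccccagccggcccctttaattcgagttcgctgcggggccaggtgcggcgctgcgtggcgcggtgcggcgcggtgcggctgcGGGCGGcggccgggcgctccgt

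The median was 9 CpG dinucleotides over the 86 windows of members and 7 over all 32851 windows in the table. The GC box stood in 43 of the 86 windows of members (50.0%) and in 35.7% of all windows. The motifs CAGCACC and GGACAG are parts of the element bound by REST, a repressor of neuronal genes in non-neuronal cells and progenitors. Searched on both strands, CAGCACC stood in 11.6% of the windows of members and 7.14% of all windows, GGACAG in 29.1% and 22.2%, and neither in the 4 windows printed. Of the other motifs searched, TATAAA stood in 5.81% of the windows of members and 13.6% of all windows. CANNTG, where N is any base, stood in 73.3% and 72.3%. All of these are matches of letters only.

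Between vectors, the clearest difference among the members was in Kcnc2. Kcnc2 encodes Kv3.2, a fast Kv channel of the Shaw family that allows rapid firing. At 24 h its 3 arrays labelled CtrlGFP read 6.64, 8.02 and 7.90, and the 3 labelled Fezf2GFP read 9.87, 9.61 and 9.51. The groups did not overlap, and the lowest control, replicate 1, was 1 of the 2 arrays with a high median. The log2 fold change of Kcnc2 was 2.14 (SE 0.34, limma adjusted p = 0.00733), 4.40-fold. Without CtrlGFP 24 h replicate 1 the log2 fold change was 1.70 and passed. In a fit of the 2 groups alone it did not pass (adjusted p = 0.0869).

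At 48 h Kcnc2 read 8.42, 7.56, 7.69 and 8.17 with the control label and 9.59, 9.06, 9.60 and 9.40 with the Fezf2GFP label. Again the groups did not overlap, and Kcnc2 was 2.73-fold higher (1.45 on the log2 scale, SE 0.29, limma adjusted p = 0.0167). This call ended without CtrlGFP 48 h replicate 3 (adjusted p = 0.054). Between times the level of Kcnc2 differed by 0.44 with CtrlGFP (95% interval -0.24 to 1.12) and by -0.25 with Fezf2GFP (-0.93 to 0.43), and neither passed. Kcnc2 was the 1 member that passed in both vector comparisons, as did 0.495% of all genes tested.

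Kcnc2 is known from fast-spiking interneurons, so their markers are given beside it. The mean level of 6 interneuron markers (Gad1, Gad2, Dlx1, Dlx2, Dlx5 and Lhx6) lay between 4.15 and 4.26 in CtrlGFP at 24 h and between 4.14 and 7.14 in Fezf2GFP at 24 h. At 48 h it lay between 4.51 and 6.61 and between 5.80 and 6.62. None of the 6 markers passed between vectors in limma at either time, with 4 at an unadjusted p under 0.05 at 24 h and 1 at 48 h. Their part in the result for Kcnc2 was not tested. In sorted bulk cells, more cells of a type and more RNA per cell cannot be told apart.

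**Figure D2:**
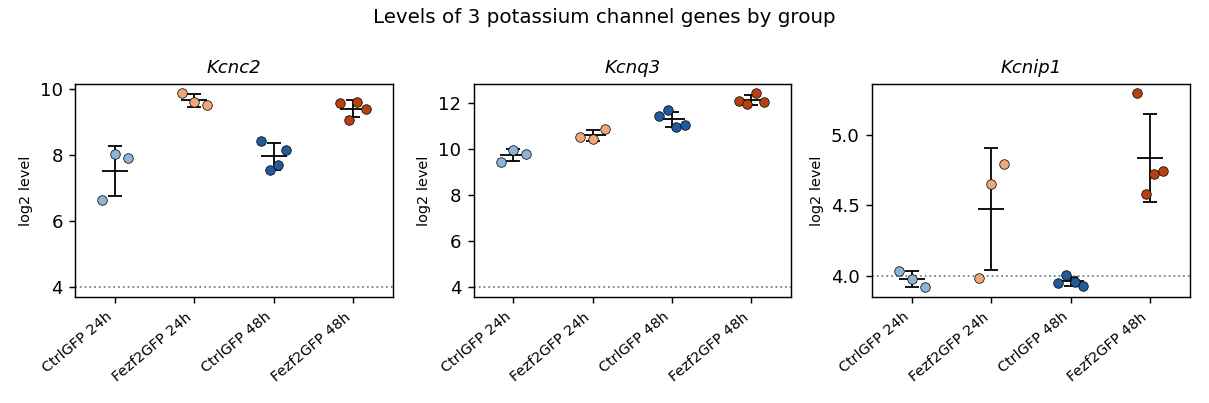
Log2 levels of Kcnc2, Kcnq3 and Kcnip1 on each array (points), with the group mean and SD (bars) and the dim level of 4 (dotted). At 48 h the 4 arrays labelled Fezf2GFP lie above the 4 labelled CtrlGFP for all 3 genes.

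The other Kv3 gene on this list of 27, Kcnc1, which encodes Kv3.1, had log2 fold changes between vectors of 0.49 at 24 h (95% interval -0.21 to 1.19) and 0.06 at 48 h (-0.54 to 0.67). Neither passed, and whether Kcnc1 and Kcnc2 differed in response was not tested.

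Kcnq3 was higher with the Fezf2GFP label as well as at the later time. It encodes a subunit of the Kv7 channel that carries the M-current, a slow current that restrains firing and is shut by muscarinic receptors. At 24 h Kcnq3 read 9.45, 9.98 and 9.78 with CtrlGFP and 10.52, 10.42 and 10.88 with Fezf2GFP. The groups did not overlap, but the log2 fold change of 0.87 did not pass (SE 0.23, limma adjusted p = 0.104). At 48 h the arrays read 11.46, 11.69, 10.97 and 11.05, and 12.10, 11.96, 12.43 and 12.05. There Kcnq3 was 1.80-fold higher (0.84 on the log2 scale, SE 0.20, limma adjusted p = 0.0342), without overlap.

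This call of Kcnq3 was narrow: it held in 13 of 25 alternative fits and ended once the gene-span trend was taken out (adjusted p = 0.103). Leaving out any 1 of CtrlGFP 24 h replicate 3, CtrlGFP 48 h replicates 3 or 4 or the 4 Fezf2GFP 48 h arrays also ended it (adjusted p between 0.0524 and 0.107). A dimmer probe set of Kcnq3, above 4 on 6 arrays, had log2 fold changes of 0.05 at 24 h and 1.55 at 48 h. Its relative Kcnq5, another Kv7 subunit, read 7.53, 7.32 and 6.98 with CtrlGFP and 9.03, 8.56 and 8.71 with Fezf2GFP at 24 h. The groups were apart, but the log2 fold change of 1.49 missed the threshold (SE 0.34, limma adjusted p = 0.0593). At 48 h the difference in Kcnq5 was 0.53 (adjusted p = 0.446).

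Kcnip1, a calcium-binding auxiliary subunit of Kv4 channels, passed at 48 h close to the dim level. Its control arrays at 48 h read 3.95, 4.01, 3.96 and 3.93, and those labelled Fezf2GFP 5.29, 4.58, 4.72 and 4.74. Kcnip1 was 1.83-fold higher (0.87 on the log2 scale, SE 0.19, limma adjusted p = 0.0257), without overlap, and 3 of the 4 control arrays were dim. It reached the filter through the arrays labelled Fezf2GFP, where it is high, so this difference is a description. At 24 h the Fezf2GFP arrays read 3.98, 4.65 and 4.79 and overlapped the controls at 4.04, 3.98 and 3.92 (log2 fold change 0.50, adjusted p = 0.527). The 48 h call held in 15 of 23 alternative fits. It ended once the gene-span trend was taken out (adjusted p = 0.122) and without CtrlGFP 48 h replicates 1, 3 or 4 or Fezf2GFP 48 h replicates 1 or 4 (adjusted p between 0.0512 and 0.0733). None of the other 3 probe sets of Kcnip1 exceeded 4 on 3 arrays.

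In all, 1 of the 27 members passed at 24 h, against 1.06% of all genes tested, and 3 passed at 48 h, against 3.13%. All 4 calls were rises, that of Kcnip1 being a description. Of all genes tested 0.806% rose and 0.253% fell at 24 h, and 2.7% rose and 0.427% fell at 48 h. The median log2 fold change was 0.14 over the members and 0.06 over all genes at 24 h, and 0.26 and 0.06 at 48 h. The vectors did not overlap for 10 members at 24 h, 8 higher and 2 lower, against 19.6% of all genes (12.6% higher and 7% lower). At 48 h they did not overlap for 5 members, all higher, against 9.07% (7.35% higher and 1.72% lower). Without the 2 arrays with high medians, 2 members passed at 24 h, Kcnc2 and Kcnd3 (-0.86, chosen after its values were seen). Without them 5 passed at 48 h, where Kcnj10 (0.96) and Kcnip3 (0.89) joined. In these fits 92 of the 10295 genes passed at 24 h and 360 at 48 h. A second probe set of Kcnip3, above 4 on all 14 arrays, had a log2 fold change of -0.17 at 48 h on all arrays, the opposite sign.

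Fold changes between vectors rose with the span of the gene, with Spearman's rho of 0.269 at 24 h and 0.281 at 48 h across all genes, and 0.348 and 0.338 across the 27 members. Genes are not independent replicates, and the members tested had a median span of 75.5 kb against 25.3 kb for all genes tested. With that trend removed Kcnc2 passed at 24 h (2.02) and at 48 h (1.30) and no other member did.

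**Figure D3:**
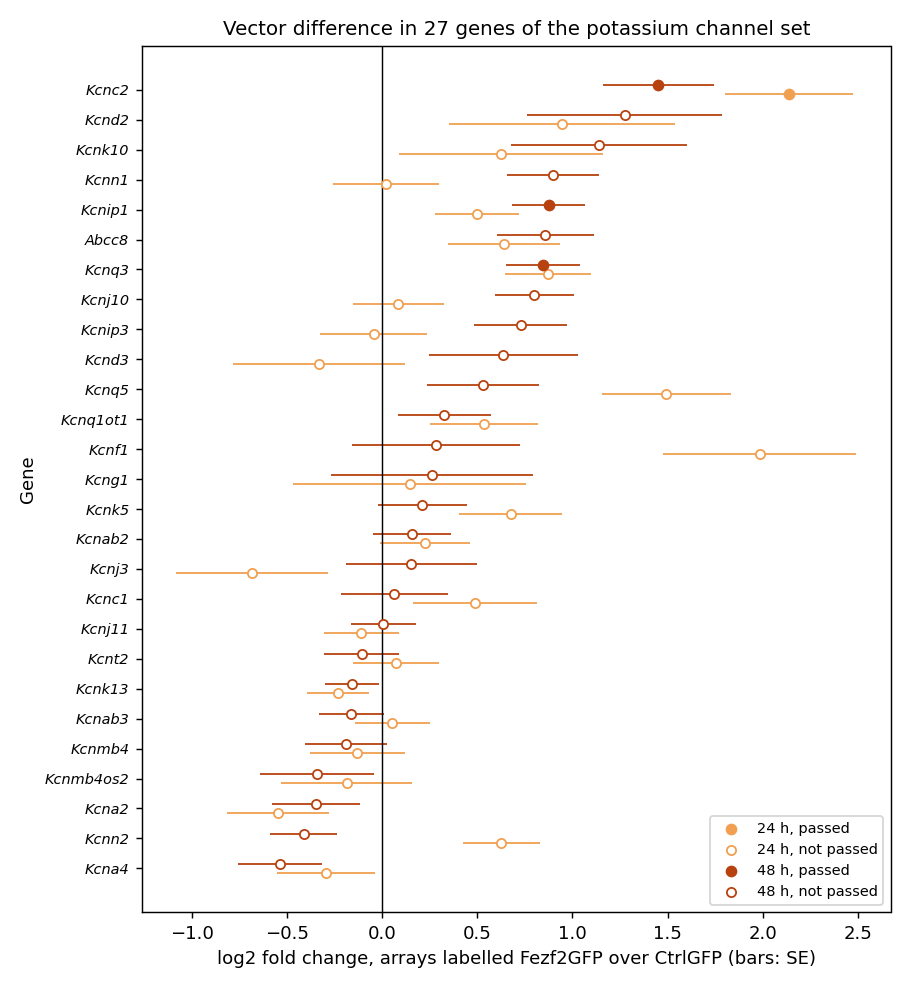
Log2 fold change of arrays labelled Fezf2GFP over CtrlGFP at 24 h and 48 h for the 27 genes tested, with SE bars; filled points passed at an adjusted p below 0.05. Kcnc2 is filled at both times, and Kcnq3 and Kcnip1 at 48 h.

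Several members missed the threshold between vectors. Kcnf1, a silent Kv subunit, was dim on all 3 control arrays at 24 h (2.84, 3.48 and 3.29) and read 5.63, 5.09 and 4.84 with Fezf2GFP, at least 2.28-fold higher (limma adjusted p = 0.0998). At 48 h Kcnf1 overlapped between vectors, with a log2 fold change of 0.28 (adjusted p = 0.824). Both Kv1 genes tested, Kcna4 and Kcna2, were lower with Fezf2GFP at 24 h without overlap. Kcna4 differed by -0.30 (limma adjusted p = 0.739) and Kcna2, dim on every array at 24 h, by -0.55 (adjusted p = 0.614). At 48 h the vectors overlapped, with differences of -0.54 for Kcna4 (adjusted p = 0.255) and -0.35 for Kcna2 (adjusted p = 0.548). Kcnj10, which encodes the inward rectifier Kir4.1 of glia, differed by 0.09 at 24 h and by 0.80 at 48 h (adjusted p = 0.0569), where the groups did not overlap. Kcnn1, a small-conductance calcium-activated channel gene, differed by 0.02 and 0.90 (adjusted p = 0.0651 at 48 h, without overlap). Markers of other cells differed between vectors at 48 h as well. The astrocyte marker Aldh1l1 stood at 8.49 and 9.89 and passed, Aqp4 at 2.68 and 4.22 did not, and Gfap and S100b were dim on all 14 arrays. The astrocyte list's mean level lay between 4.07 and 4.47 with CtrlGFP and between 4.67 and 5.34 with Fezf2GFP. Of the Cajal-Retzius markers Calb2 (2.80 and 7.44) exceeded 4 only on the 4 arrays of Fezf2GFP at 48 h. It reached the filter through them, so its pass is only a description. Reln (8.50 and 10.98) did not pass, and Trp73 and Lhx5 were dim on all 14 arrays. That list's mean level lay between 3.57 and 4.56 and between 5.33 and 6.35. Among the radial glia markers Nes rose by 1.30 and Hopx fell by 2.28. Both oligodendrocyte lineage markers tested, Olig1 and Olig2, were lower with Fezf2GFP at 48 h, with a median log2 fold change of -1.43. Each had an unadjusted p under 0.05 in limma, and neither passed. Of the 6 intermediate progenitor markers 5 were lower and 1 was higher with Fezf2GFP at 48 h, and 1 passed, downward. The part of these markers in the differences of Kcnj10 and the other members was not tested.

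None of the 27 members passed the test of the difference between the 2 vector effects in limma, where 0.0971% of all genes did (0.068% higher, 0.0291% lower). At an unadjusted p under 0.05 were 4 members and 509 of the 10295 genes. Kcnn2, a small-conductance calcium-activated channel gene of the same family as Kcnn1, had the smallest p among them. It read 8.76, 8.88 and 9.15 with CtrlGFP and 9.47, 9.60 and 9.61 with Fezf2GFP at 24 h. At 48 h the order was turned, at 9.92, 9.58, 9.47 and 10.03 against 9.61, 8.96, 9.31 and 9.47, with overlap. The effects of 0.63 and -0.41 differed by -1.04 (SE 0.27, limma adjusted p = 0.423).

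Between 24 h and 48 h more members changed, and most of those that passed were higher at 48 h. With CtrlGFP 9 of the 27 members passed, 8 higher and 1 lower, against 12.6% of all genes tested (5.88% higher, 6.69% lower). With Fezf2GFP 7 passed, 6 higher and 1 lower, against 12.1% (6.38% higher, 5.67% lower). Abcc8, Kcnd2, Kcnmb4, Kcnq3, Kcna2 and Kcnmb4os2 passed upward with both vectors (22.2% of the 27), where 7.35% of all genes passed the same way in both. Nothing is read from these counts with time. Kcna2 and Kcnmb4os2 reached the filter through the 48 h arrays, where they are high, and Kcnk5 through the 24 h arrays, where it is high. The median log2 fold change of the members was 0.42 with CtrlGFP and 0.36 with Fezf2GFP, against -0.02 and -0.01 for all genes. The times did not overlap for 10 members higher and 1 lower with CtrlGFP, against 22.7% of all genes (9.93% higher, 12.8% lower). With Fezf2GFP it was 10 higher and 3 lower, against 26.2% (13.3% higher, 12.9% lower). Arrays of each time form their own groups, so time and any batch in which they were made cannot be told apart.

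The largest change with time was in Abcc8, which encodes SUR1, the regulatory subunit through which ADP opens and sulfonylureas close ATP-sensitive channels of neurons. With CtrlGFP Abcc8 read 3.56, 4.42 and 3.65 at 24 h and 7.44, 7.63, 7.22 and 7.85 at 48 h. With Fezf2GFP it read 4.77, 4.41 and 4.36, then 8.72, 8.38, 8.73 and 7.75. Every 48 h array lay above every 24 h array, by a gap far wider than the spread within a group. The log2 fold changes of Abcc8 were 3.66 (SE 0.27, limma adjusted p = 1.25e-05), 12.6-fold with 2 of 3 control arrays dim at 24 h, and 3.88 (SE 0.27, adjusted p = 7.78e-06), 14.7-fold. Both calls of Abcc8 held in 25 of 25 alternative fits, with values down to 1.83 and 1.94, the 2 lowest where all probe sets were averaged, since the second probe set of Abcc8 was dim throughout.

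The pore subunit that SUR1 assembles with, Kir6.2, is encoded by Kcnj11. Its arrays read 8.25, 8.22 and 8.11 at 24 h and 8.09, 8.77, 8.68 and 8.22 at 48 h with CtrlGFP. With Fezf2GFP they read 8.04, 8.06 and 8.16, then 8.21, 8.68, 8.36 and 8.53. The log2 fold changes of Kcnj11 with time were 0.25 (95% interval -0.15 to 0.64, adjusted p = 0.487) and 0.36 (-0.04 to 0.76, adjusted p = 0.255). These intervals end far below the changes of Abcc8. With Fezf2GFP the 48 h arrays of Kcnj11 lay above its 24 h arrays without overlap, though the difference did not pass.

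**Figure D4:**
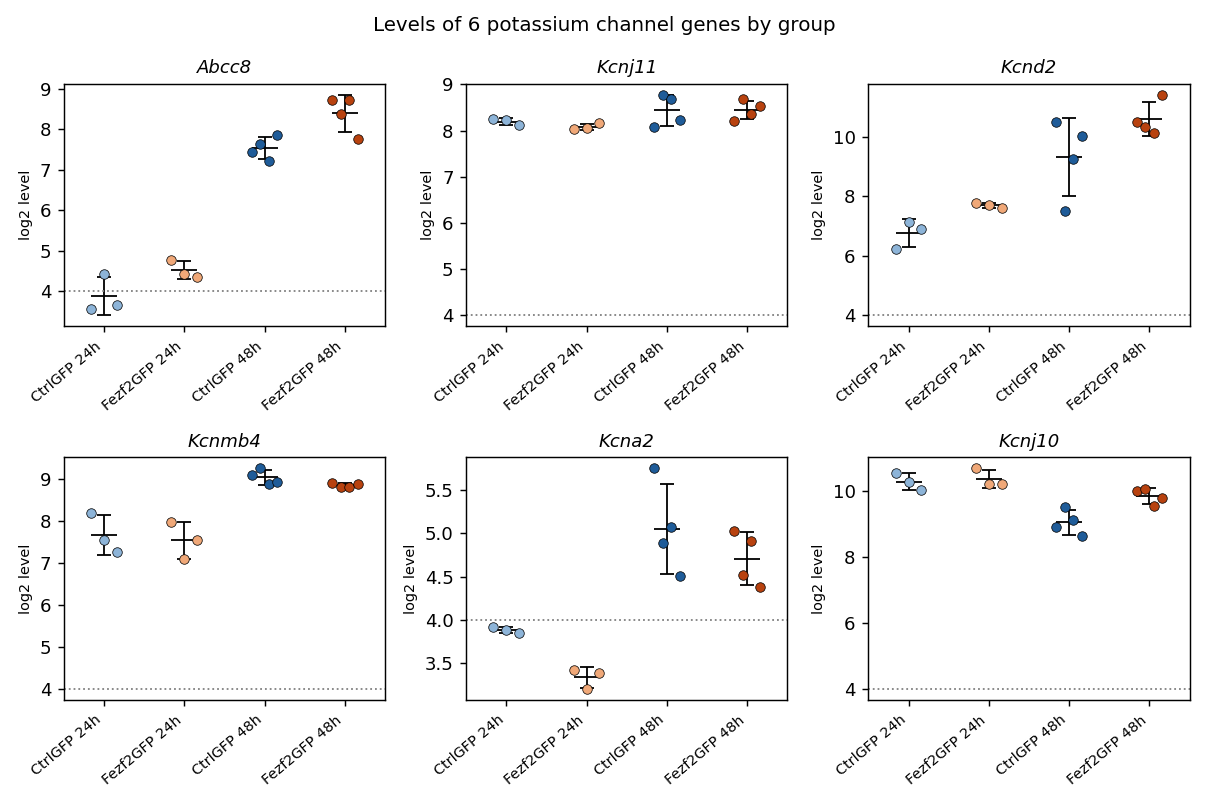
Log2 levels of Abcc8, Kcnj11, Kcnd2, Kcnmb4, Kcna2 and Kcnj10 on each array (points), with the group mean and SD (bars) and the dim level of 4 (dotted). Abcc8 stands between 3.56 and 4.77 at 24 h and between 7.22 and 8.73 at 48 h, while Kcnj11 stays between 8.04 and 8.77.

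Kcnd2, which encodes Kv4.2, the main carrier of the dendritic A-type current, was the next largest. With CtrlGFP it read 6.25, 7.13 and 6.91, then 10.49, 7.51, 9.25 and 10.03; the lowest 48 h array was replicate 2, with a high median. With Fezf2GFP it read 7.78, 7.73 and 7.62, then 10.51, 10.33, 10.12 and 11.42. The log2 fold changes of Kcnd2 were 2.56 (SE 0.55, limma adjusted p = 0.00823) and 2.89 (SE 0.55, adjusted p = 0.0047), without overlap. In the fit of the 2 CtrlGFP groups alone the first did not pass (adjusted p = 0.0659). The 2 other probe sets of Kcnd2 above the dim level pointed the same way, at 1.46 and 1.94 with CtrlGFP and 2.25 and 2.62 with Fezf2GFP. The other Kv4 gene tested, Kcnd3, differed by 0.18 with CtrlGFP (adjusted p = 0.868) and 1.15 with Fezf2GFP (adjusted p = 0.105).

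Kcnq3 rose by 1.56 with CtrlGFP (SE 0.21, limma adjusted p = 0.000528) and 1.53 with Fezf2GFP (SE 0.21, adjusted p = 0.000719), about as much with each vector. Both calls of Kcnq3 held in 25 of 25 alternative fits. Its second probe set had log2 fold changes of 0.80 and 2.31. Kcna2, which encodes the axonal channel Kv1.2, was dim on all 6 arrays at 24 h and above 4 on all 8 at 48 h, so it passed the filter only through the 48 h arrays, and its difference with time is given as a description. It read 3.92, 3.88 and 3.85, then 5.75, 4.89, 5.07 and 4.51 with CtrlGFP, at least 2.07-fold higher. With Fezf2GFP it read 3.42, 3.20 and 3.39, then 5.02, 4.52, 4.91 and 4.38, at least 1.63-fold higher.

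Kcnmb4, the neuronal beta subunit of large-conductance calcium-activated channels, read 8.19, 7.56 and 7.26, then 9.09, 9.25, 8.87 and 8.93 with CtrlGFP. With Fezf2GFP it read 7.97, 7.09 and 7.56, then 8.90, 8.82, 8.80 and 8.88. The log2 fold changes of Kcnmb4 were 1.37 (SE 0.23, limma adjusted p = 0.00196) and 1.31 (SE 0.23, adjusted p = 0.00306). The RNA Kcnmb4os2, whose RefSeq span overlaps that of Kcnmb4, was at least 2.89-fold higher at 48 h with CtrlGFP and differed by 1.68 on the log2 scale with Fezf2GFP. It was dim on 5 of 6 arrays at 24 h and on none at 48 h, so these values too are a description. Whether the probes separate the strands there was not tested. The pore subunit that Kcnmb4 attaches to, Kcnma1, was not tested, being dim on 13 of 14 arrays.

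Kcnc1 and Kcnn2 passed with CtrlGFP and not with Fezf2GFP by their brightest probe sets. With CtrlGFP Kcnc1 read 4.65, 4.93 and 5.84, then 6.56, 6.24, 6.30 and 6.37 (log2 fold change 1.23, SE 0.30, limma adjusted p = 0.0175). With Fezf2GFP Kcnc1 differed by 0.80 (adjusted p = 0.114). Its second probe set, above 4 on 8 arrays, had log2 fold changes of 1.15 with CtrlGFP and 1.58 with Fezf2GFP, so the probe sets of Kcnc1 disagree on which vector gives the larger change. The call of Kcnc1 ended without CtrlGFP 24 h replicate 1 (0.0835) or replicate 2 (0.0739). Kcnn2 rose by 0.82 with CtrlGFP (SE 0.19, adjusted p = 0.0128) and stood at -0.22 with Fezf2GFP (adjusted p = 0.549). The call of Kcnn2 ended without CtrlGFP 24 h replicate 1 (0.0527) or replicate 2 (0.0503). For neither gene did the time effects differ between vectors by the interaction test given above (adjusted p = 0.998 for Kcnc1).

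2 members passed downward with time, Kcnk5 only as a description. Kcnj10, whose channel Kir4.1 gives glia their potassium conductance, read 10.54, 10.25 and 10.03, then 8.89, 9.52, 9.10 and 8.64 with CtrlGFP. The fall of Kcnj10 was -1.24 (SE 0.22, limma adjusted p = 0.00294) and held in 25 of 25 alternative fits. With Fezf2GFP it read 10.67, 10.20 and 10.20, then 9.98, 10.04, 9.53 and 9.79, a difference of -0.52 (adjusted p = 0.168) without overlap. Kcnk5, a 2-pore leak channel gene near the dim level, read 5.44, 4.53 and 4.21, then 3.77, 3.72, 3.75 and 4.17 with Fezf2GFP. Its difference of -0.87 (SE 0.25, limma adjusted p = 0.040) passed in 11 of 23 alternative fits. Kcnk5 reached the filter through the 24 h arrays, where it is high, and 3 of its 4 Fezf2GFP arrays at 48 h were dim. This difference is therefore a description. Without Fezf2GFP 24 h replicate 1 the value was -0.52 (adjusted p = 0.155), and leaving out any 1 of 8 other arrays also ended the call.

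**Figure D5:**
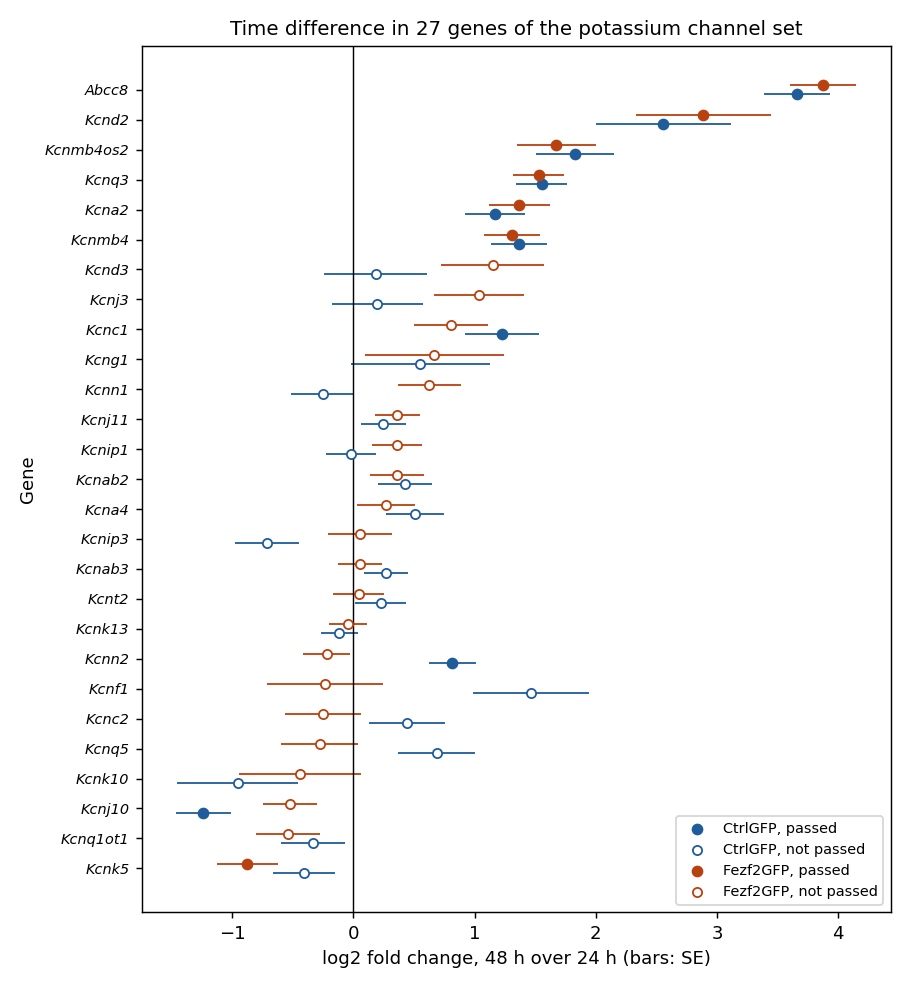
Log2 fold change of 48 h over 24 h with CtrlGFP and with Fezf2GFP for the 27 genes tested, with SE bars; filled points passed at an adjusted p below 0.05. Abcc8 and Kcnd2 stand highest with both vectors, and Kcnj10 (CtrlGFP) and Kcnk5 (Fezf2GFP) are the filled points below 0.

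Markers of maturation moved with these time comparisons. Of 9 markers of postmitotic neurons 3 rose with CtrlGFP (Tubb3, Snap25 and Stmn2) and 2 with Fezf2GFP (Neurod2 and Stmn2), where 5.88% and 6.38% of all genes rose. Their mean level went from between 11.77 and 12.36 to between 12.67 and 13.16 with CtrlGFP. With Fezf2GFP it went from between 12.47 and 12.51 to between 12.98 and 13.10. Of 6 intermediate progenitor markers 5 fell with CtrlGFP and 4 with Fezf2GFP, and of 9 radial glia markers 2 (Nes and Slc1a3) and 0 fell. Of all genes tested 6.69% and 5.67% fell. The mean level of the radial glia markers, given here beside Kcnj10, went from between 11.14 and 11.42 to between 10.18 and 10.82 with CtrlGFP. With Fezf2GFP it went from between 11.13 and 11.41 to between 10.14 and 11.06. Markers of other cell types also moved. In the oligodendrocyte lineage list Olig1, dim on all 3 CtrlGFP arrays at 24 h with a mean of 3.66, was at least 18.3-fold higher at 48 h. Olig1 reached the filter through the 48 h arrays, where it is high, so this is a description. Olig2 went from 4.60 to 6.52 with CtrlGFP and passed. Of the list's other 2 markers Sox10 stayed dim on all 14 arrays. Pdgfra went the other way, from 4.17 to 3.83 with CtrlGFP, and was not tested, being above 4 on only 2 arrays. With Fezf2GFP Calb2 of the Cajal-Retzius list went from 2.93 to 7.44, a description too, since only the Fezf2GFP 48 h arrays exceeded 4. Of 4 astrocyte markers 1 passed with Fezf2GFP, Aldh1l1, from 8.51 to 9.89. The mean level of the oligodendrocyte list went from between 3.41 and 3.88 to between 4.37 and 5.66 with CtrlGFP. The part of all these markers in the changes of the channel genes was not tested.

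The 15 members that passed nowhere included the G protein-gated rectifier gene Kcnj3, the 2-pore genes Kcnk10 and Kcnk13, the Kv beta subunit genes Kcnab2 and Kcnab3, and Kcnip3. Kcnk10, which encodes a mechanosensitive and lipid-sensitive leak channel, ranged from 7.10 to 10.37 over the 14 arrays, and its lowest value was that of CtrlGFP 48 h replicate 2. Its difference of 1.14 between vectors at 48 h had an adjusted p of 0.247. The silent subunit gene Kcng1 spread from 5.03 to 7.99 within the CtrlGFP 48 h group alone, wider than any of its differences between groups.

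Proteins that anchor or assist potassium channels were listed separately, and 17 of 24 could be tested. With time 5 rose and 1 fell with CtrlGFP, and 6 rose and 1 fell with Fezf2GFP, against 12.6% and 12.1% of all genes tested. The median log2 fold changes were 0.42 and 0.49, against -0.02 and -0.01 over all genes. Dlg2, a scaffold that clusters Kv1 channels, rose by 3.19 with Fezf2GFP (SE 0.46, limma adjusted p = 0.000975). With CtrlGFP it passed too (adjusted p = 5.17e-05), but 2 of its 3 arrays at 24 h were dim, so no size is given. Cntn2, an adhesion molecule of the juxtaparanode where Kv1 channels gather, rose by 2.59 and 1.47, and Adam22, a receptor in the same complex, by 1.11 and 0.98. The fall was in Rest, from 6.87 to 5.34 with CtrlGFP (-1.53, SE 0.23, adjusted p = 0.000954) and from 6.66 to 5.71 with Fezf2GFP (-0.95, SE 0.23, adjusted p = 0.0165). Between vectors 1 of the 17 passed at each time, against 1.06% and 3.13% of all genes, Dlg2 at 24 h (adjusted p = 0.0303, against the same dim controls) and Cntnap2, the partner of Cntn2, at 48 h (1.25, SE 0.22, adjusted p = 0.00876).

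Of 17 pumps and cotransporters that carry potassium 7 could be tested. Slc24a3, a sodium, calcium and potassium exchanger, rose between vectors at both times, by 1.47 (SE 0.29, limma adjusted p = 0.0284) and 1.44 (SE 0.25, adjusted p = 0.00815). With time the sodium pump subunit Atp1b1 rose with Fezf2GFP (1.11, adjusted p = 0.027), and the potassium chloride cotransporter Slc12a7 fell with CtrlGFP (-1.08, adjusted p = 0.0356). Among 18 other voltage-gated channel genes tested (sodium, calcium and HCN), 8 rose and 0 fell in each time comparison, where 5.88% and 6.38% of all genes rose. Between vectors 1 of the 18 rose at each time, where 0.806% and 2.7% of all genes did.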

How the data were processed

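The authors deposited log2 expression values for 45037 probe sets on 14 Affymetrix mouse arrays, 1 per sample, made with GCRMA per the submitters' processing notes, after 2 rounds of linear amplification per the labels' protocols. No version or setting of it is stated. Probe sets were paired with genes by the platform annotation: 34945 had 1 symbol, 932 several and 9160 none.

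For each symbol the probe set with the highest mean was kept, and 10295 of 18193 symbols above 4 on at least 3 arrays were tested. Using limma 3.58.1 (R 4.3.3), 1 model of group means took in the 14 arrays, with Benjamini-Hochberg adjustment over all genes tested; "at least" folds take a dim group at the higher of 4 and each array's value. The number of arrays and signal over background limit the precision. The functions were tested on simulated data. Members, lists and the naming rule were chosen with earlier results of these data known. The rule names members that passed, the 8 smallest p per comparison, the brightest tested member per family and 12 fixed members; members at the dim limit, passing nowhere or beside another member are named beyond it. Alternatives were other filters, normalizations, probe summaries and fits, and each array left out.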

Additional observations from a re-analysis of the deposited data

Results flagged for a closer look

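Among 46 groups of 4 arrays, 2 values stood apart from the other 3 by more than Dixon's critical share of the group's range, and chance gives about 1 in 20. Kcnd3 read 9.32 in CtrlGFP 48 h replicate 2, where the other 3 arrays lay between 10.72 and 10.98; that array also had a high median. Kcnk5 read 4.17 in Fezf2GFP 48 h replicate 4, where the other 3 lay between 3.72 and 3.77.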

How the results depend on the processing

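The log2 fold changes followed through the alternatives kept their sign in each one run. They were those of named members at an unadjusted limma p under 0.05 in the main fit. The refits used the same or nearly the same arrays, so a kept sign is a weak check. Leaving out 1 array gave 1 to 2 members at 24 h, 0 to 4 at 48 h, 0 for the difference of the vector effects, 7 to 11 with time in CtrlGFP and 6 to 9 in Fezf2GFP. Over all 10295 genes the same fits gave 50 to 165, 188 to 373, 0 to 12, 911 to 1446 and 643 to 1433. Between vectors at 24 h, 2 members passed with median centring, with only the groups compared (Kcnf1 and Kcnq5, not Kcnc2), and without both arrays of high median. Over all genes 113, 63 and 92 passed in these fits. At 48 h, 1 passed with only the groups compared or once the gene-span trend was taken out, and 5 without both arrays of high median. Over all genes 168, 276 and 360 passed in these fits. With a replicate block 0 members passed at 48 h (adjusted p = 0.0542 for Kcnc2), against 232 genes in all. In that fit the members that passed in the other comparisons of the main fit still passed. Of 19 pairs of same-numbered arrays 5 correlated above 0.1 in their deviations (range -0.399 to 0.318). The labels do not say what the number stands for, and whether such arrays share a litter or preparation was not tested. Array weights, whose fit stopped before convergence, gave 10, 5, 3, 15 and 11 members in the order of comparisons above. Over all 10295 genes that fit gave 2030, 550, 240, 3077 and 3133. With a dim level of 6, 17 members could be tested and 4 passed with time in Fezf2GFP, against 1145 of 9255 genes. Median centring moved the median over all genes to 0.13 at 24 h and 0.11 at 48 h. The causes of these shifts were not tested.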

Other observations

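Several members are neighbours in RefSeq with no other protein-coding gene between them. Kcnj11 and Abcc8, the genes of the neuronal ATP-sensitive channel, are such a pair, and Abcc8 rose with time while Kcnj11 did not pass. Kcnj8 and Abcc9, the genes of the vascular form, are another pair, and neither could be tested. Kcnj10 stands beside Kcnj9, which encodes a G protein-gated rectifier and exceeded the dim level on 2 arrays. Kcna2 stands beside Kcna3, the Kv1 gene best known from lymphocytes, which lay between 2.17 and 2.38 on all 14 arrays. Kcna5, Kcna1 and Kcna6 follow each other and were dim on all 14 arrays. Kcnip1 overlaps Kcnmb1, a smooth muscle beta subunit that lay between 2.68 and 2.78.

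Where a member that passed had another probe set above the dim level on at least 3 arrays, the signs matched in 10 of 10 readings, over 8 of the 20 passing results. These readings come from other probe sets of Kcnq3, Kcna2, Kcnd2 and Kcnc1 only, on the same arrays. Each probe set is counted once per comparison that passed, so the readings are not 10 separate probe sets. Those of Kcna2 belong to results given as a description. The other 12 results rest on 1 probe set. This covers signs in the comparisons that passed with all arrays.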
